A study of Oryza sativa with 2 samples.

Results

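The regions described here were the differentially methylated regions (DMRs) of rice seeds that lie near a centromere. A DMR is a short stretch whose cytosines were methylated to a different level in seeds matured under heat and in control seeds. A DMR was counted as pericentromeric where its middle lay at most 5 Mb from an approximate centromere midpoint of its chromosome. This position rule chose 203 of the 419 DMRs on the 12 chromosomes, and the other 216 lay on the chromosome arms. A further 38 of the 457 DMRs lay on unplaced sequences and were not classed.

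The seeds were those of rice (Oryza sativa) cultivar Nipponbare, the cultivar of the reference genome. Plants were kept at 25 °C or at 30 °C from flowering until harvest, and their mature grains are the control seeds (CS) and the heat-treated during development seeds (HDS), respectively. DNA pooled from isolated embryos went through whole-genome bisulfite sequencing, which reads only methylated cytosines as cytosine. There was 1 library per group, so each value below contrasts 2 pools, has no replicate check and carries no test between temperatures. The read depth behind each level is unknown, and the intervals given cover counting error over regions only.

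Plant centromeres are built of satellite repeats and centromere retrotransposons, and the flanking pericentromeric chromatin is rich in transposable elements, poor in active genes and densely methylated. Plants methylate cytosine in 3 sequence contexts, CG, CHG and CHH, where H is any base but G. CG methylation is copied after replication by the maintenance enzyme MET1, CHG methylation is kept by CMT3 together with histone H3 lysine methylation, and CHH methylation has to be set anew by small RNA-directed DRM2 or by CMT2. The label of the regions could not be checked against centromere sequence, because no sequence or annotation of the IRGSP-1.0 build was analysed here. For the same reason no gene, repeat or base sequence is assigned to a region below.

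DMRs were more frequent near the centromeres, and most pericentromeric DMRs had gained methylation under heat. The windows held 1.72 DMRs per Mb (95% exact Poisson interval 1.49 to 1.98, 117.8 Mb) and the arms 0.882 per Mb (0.768 to 1.01). The ratio was 1.95 (1.61 to 2.38). These intervals treat DMRs as independent, although 41.4% of the pericentromeric ones lay in groups within 10 kb, so they may be too narrow. Of the 203 pericentromeric DMRs, 132 were hyper-DMRs, with the higher level in HDS, and 71 were hypo-DMRs. Hyper-DMRs thus made up 65.0% of them (58.2 to 71.3, a 95% Wilson interval), against 59.4% over all 419 DMRs on the chromosomes and 54.2% (47.5 to 60.7) on the arms.

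The pericentromeric share exceeded that of the arms by 10.9 percentage points (95% Newcombe interval 1.45 to 20). The interval included 0 when chromosome 7, 9 or 10 was left out, with differences of 9.15, 8.11 and 9.62 points. It also did so with a window of 2.5 Mb (4.12 points), with midpoints moved 0.5 Mb towards the end (9.32), with at least 10 cytosines required (10.4) and with overlapping regions left out or counted once, as given below. Both kinds of DMR were denser near the centromeres than on the arms. The density ratio was 2.35 (1.82 to 3.04) for hyper-DMRs and 1.49 (1.08 to 2.04) for hypo-DMRs. With each base counted once, 21574 of the 33586 bp covered by pericentromeric DMRs (64.2%) lay in gains alone, against 17993 of 35848 bp (50.2%) on the arms.

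**Figure D1:**
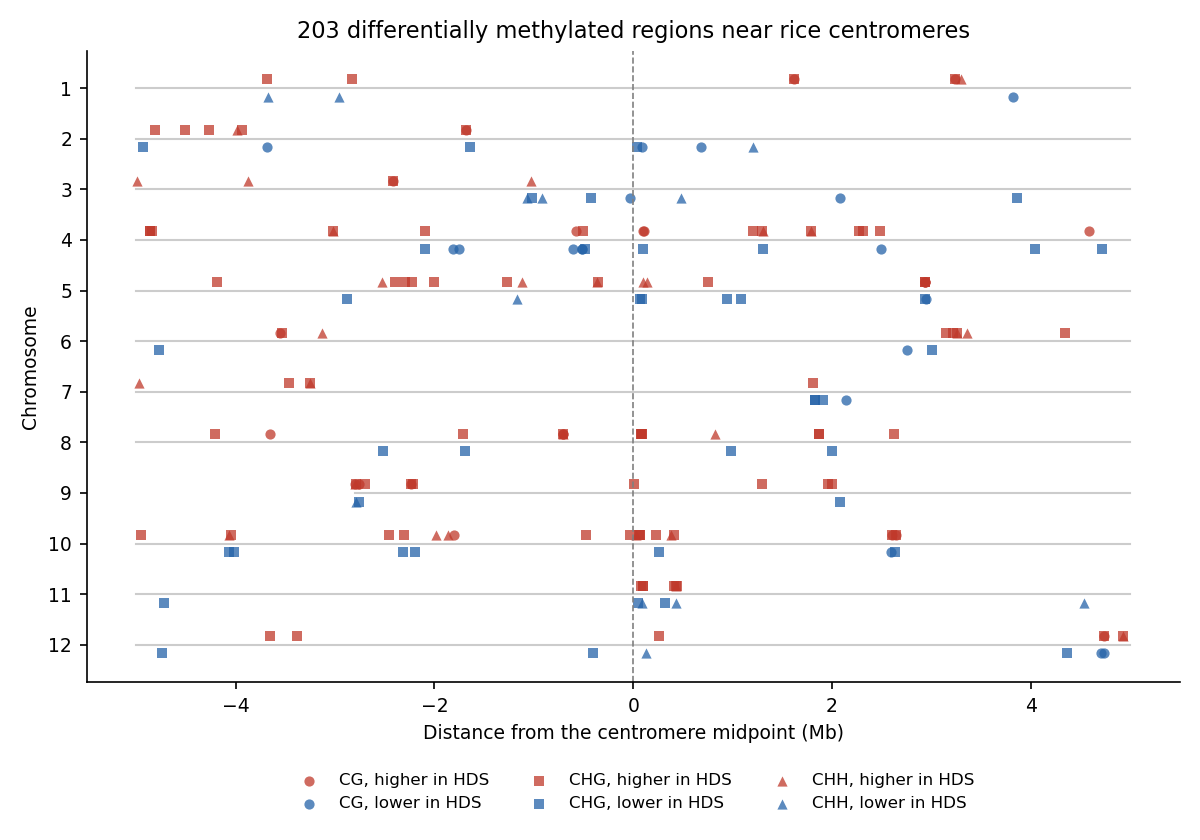
Position of each pericentromeric DMR relative to the approximate centromere midpoint (horizontal axis, Mb) on the 12 rice chromosomes (vertical axis), with red above the line for higher and blue below it for lower in HDS, and symbols for the contexts. The 203 DMRs crowd the midpoint on some chromosomes, leave 5.89 Mb free around it on chromosome 6, and begin 2.80 Mb before it on chromosome 9, where the chromosome sequence starts.

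DMRs were densest next to the midpoint and did not thin out evenly. There were 59 DMRs within 1 Mb of a midpoint, or 2.46 per Mb (95% exact Poisson interval 1.87 to 3.17). This interval overlapped those of 1 to 2 Mb (1.05 to 2.08), 2 to 3 Mb (1.52 to 2.72) and 4 to 5 Mb (0.916 to 1.91). Such overlap does not settle whether steps differ, and differences between steps were not tested. Chromosomes 4, 5, 8, 10 and 11 held 9, 8, 10, 10 and 11 of the 59, and chromosomes 1, 6 and 7 held 0. The next steps of 1 Mb held 1.5, 2.06, 1.22 and 1.35 DMRs per Mb, so the third step was again above its neighbours, although its interval (1.52 to 2.72) overlapped theirs. The density did not drop at the 5 Mb limit itself. Just beyond it, from 5 to 6 Mb, 34 DMRs gave 1.48 per Mb, and from 6 to 7 Mb the value was 0.913 per Mb.

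**Figure D2:**
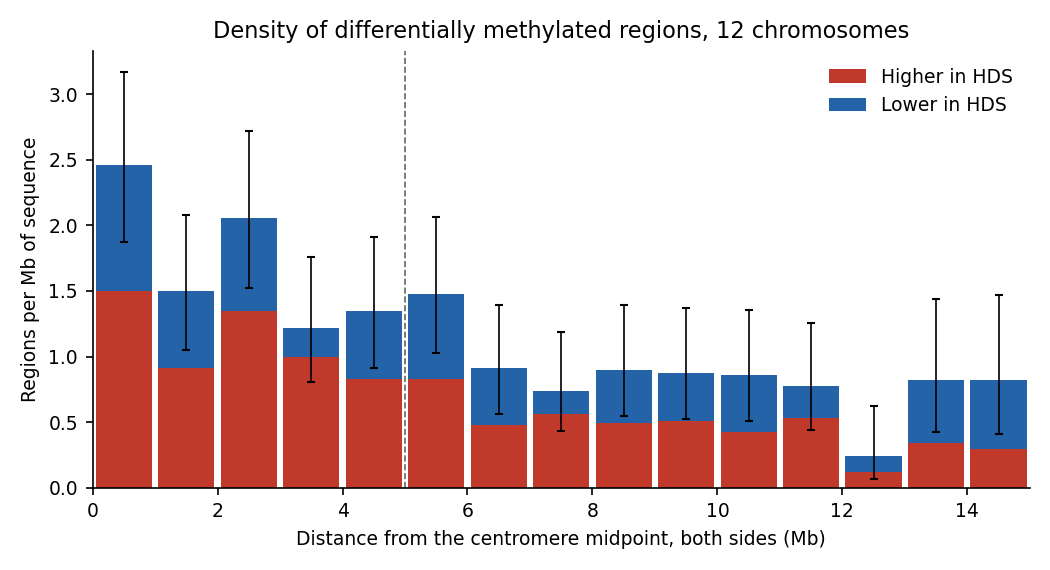
DMRs per Mb (vertical axis) by distance from the centromere midpoint in 1 Mb steps (horizontal axis), stacked by direction in HDS, with 95% exact Poisson intervals of the total and a dashed line at the 5 Mb limit. The first step stands at 2.46 per Mb, and the density is still 1.48 per Mb just outside the limit before falling to 0.913.

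Hyper-DMRs were in the majority at every distance within the window. Their share was 61.0% within 1 Mb, 61.1% from 1 to 2 Mb, 65.3% from 2 to 3 Mb, 82.1% (23 of 28, 64.4 to 92.1) from 3 to 4 Mb and 61.3% from 4 to 5 Mb. The fourth step was the highest, but its interval overlapped those of the other 4. A majority of gains was not particular to the window. In the 1 Mb steps from 5 to 10 Mb the shares were 55.9%, 52.4%, 76.5%, 55% and 57.9%. It did not hold at every distance on the arms, however. From 10 to 16 Mb the shares were 50%, 68.8%, 50%, 41.7%, 36.4% and 55.6%, in steps of 4 to 18 DMRs. Before the midpoint, 66 of 97 DMRs were hyper-DMRs, and after it 66 of 106.

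Gains outnumbered losses in each of the 3 contexts, by 82 to 41 in CHG, 28 to 12 in CHH and 22 to 18 in CG. The context makeup was nearly the same at both positions, and CG, CHG and CHH made up 19.7%, 60.6% and 19.7% of pericentromeric DMRs and 19.4%, 60.6% and 19.9% of those on the arms. In CHG, the largest class, 82 of 123 pericentromeric DMRs were hyper-DMRs (66.7%, 57.9 to 74.4), against 59.4% over all CHG DMRs on the chromosomes. The CHG share exceeded the 52.7% of the arms by 14.0 points (1.92 to 25.5), but the interval included 0 without chromosome 9 (11.5 points), with a window of 2.5 Mb (9.55), with at least 10 cytosines (17.6) and with overlapping regions left out (10.7) or counted once (12). In CHH, 28 of 40 were hyper-DMRs (70%, 54.6 to 81.9), against 61.4% over all CHH DMRs. The interval of the CHH share included 50% in 3 of 22 alternatives. Among these were a window of 2.5 Mb (63.6%, 43.0 to 80.3) and chromosome 10 left out (65.7%, 49.2 to 79.2). The 16.5 points between the pericentromeric CHH share and that of the arms had an interval that included 0 (-4.32 to 35.3).

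In CG the counts of gains and losses lay closer together. Of 40 pericentromeric CG DMRs, 22 were hyper-DMRs (55.0%, 39.8 to 69.3), against 57.3% over all CG DMRs. The share was 4.52 points lower than on the arms, with an interval from -24.8 to 16.2, so neither an excess of gains nor of losses could be told in CG at this number of regions. The CG share fell below 50% with a window of 2.5 Mb (47.6%), with at least 10 cytosines (47.8%) and without overlapping regions (41.9%). Its interval overlapped those of CHG and CHH, and the difference between contexts was not tested.

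**Figure D3:**
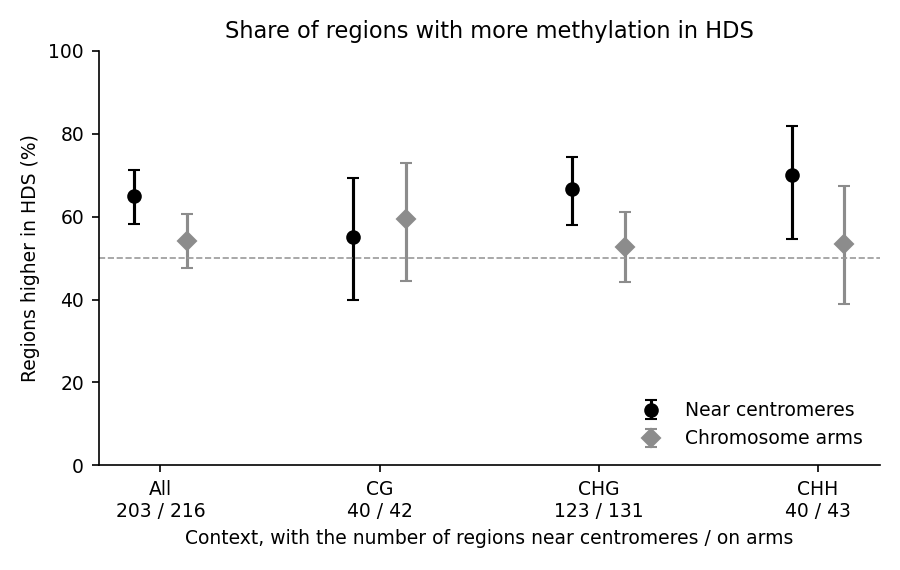
Share of hyper-DMRs (vertical axis, percent) near the centromeres (circles) and on the arms (diamonds), for all contexts and for CG, CHG and CHH, with 95% Wilson intervals and a dashed line at 50%. The pericentromeric share lies above that of the arms in CHG (66.7 against 52.7%) and CHH (70 against 53.5%) and below it in CG (55.0 against 59.5%).

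The levels themselves show what a gain meant in each context. Pericentromeric CG hyper-DMRs rose from a median of 49.5% in CS to 84.3% in HDS, and the CG hypo-DMRs mirrored them with 86.3% in CS and 48.5% in HDS. The typical CG DMR thus lay between intermediate and near-complete methylation. In 14 of the 22 CG hyper-DMRs the CS level was at least 30%, and in 14 of 22 the HDS level was at least 80%. A level under 10% in either library was found in 5 of the 40 CG DMRs (12.5%), and on the arms in 5 of 42 (11.9%). The median CG gain on the arms, from 38.7% to 82.1%, had intervals that overlapped the pericentromeric ones.

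CHG DMRs moved across a lower range. The median CHG hyper-DMR had 25.9% in CS and 68.4% in HDS, and the median hypo-DMR had 72.3% in CS and 28.5% in HDS. In 79 of the 82 CHG hyper-DMRs the HDS level was at least 50%, while 11 had a CS level under 10%. On the arms the median CHG gain was from 29.7% to 69.1%, again with overlapping intervals. CHG also held the widest changes. The largest gain was at chromosome 8, 12983855 to 12983912 (58 bp, 5 cytosines), with 7.07% in CS and 92.3% in HDS. The largest loss was at chromosome 3, 23257160 to 23257223 (64 bp, 8 cytosines), with 78.8% in CS and 8.35% in HDS. These places were picked for the size of their difference and rest on few cytosines. Both levels of the largest loss also recurred to all decimals compared at other places, as given at the end.

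CHH DMRs were mostly places with little methylation in the lower library. CHH hyper-DMRs had a median of 6.37% in CS and 42.4% in HDS, and 20 of the 28 were under 10% in CS. CHH hypo-DMRs had a median of 41.7% in CS and 11.5% in HDS. In all 40 CHH DMRs the lower level was below 30%. The lower level was under 10% in 25 of 40 (62.5%) near the centromeres and in 21 of 43 (48.8%) on the arms, a difference of 13.7 points whose interval (-7.48 to 33.1) included 0. The median CS level of CHH hyper-DMRs was 14.4% on the arms, and its interval (4.45 to 19.4) overlapped the pericentromeric one (3.53 to 9.09).

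**Figure D4:**
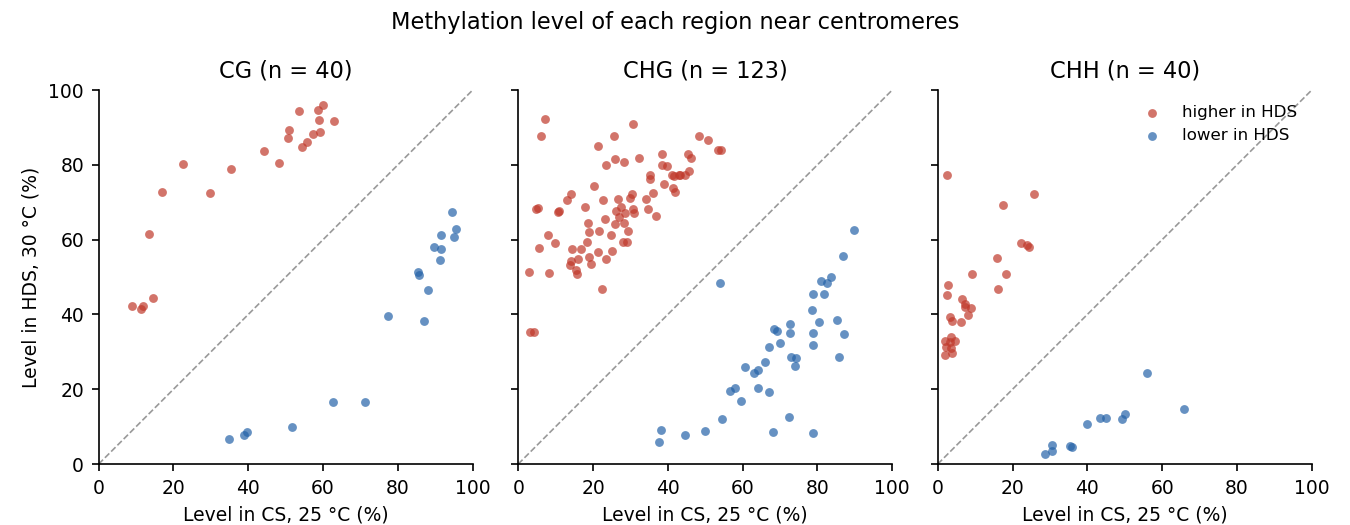
Methylation level of each pericentromeric DMR in CS (horizontal axis, percent) and in HDS (vertical axis, percent), in 1 panel per context, with hyper-DMRs in red, hypo-DMRs in blue and a dashed line of equal levels. Most CG gains sit in the upper range (medians of 49.5% in CS and 84.3% in HDS), CHG gains in the middle (25.9 and 68.4%), and CHH gains along the vertical axis (6.37 and 42.4%).

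Gains also outnumbered losses among the pericentromeric DMRs with large differences. Of the 75 DMRs with a difference of at least 40 points, 52 were hyper-DMRs (69.3%), of the 29 with at least 50 points 22 were (75.9%), of the 9 with at least 60 points 8 were, and of the 4 with at least 70 points 3 were. On the arms, 39 of 79 DMRs with at least 40 points (49.4%), 8 of 25 with at least 50 points (32%) and 2 of 3 with at least 60 points were hyper-DMRs. These groups are nested, and the pericentromeric intervals overlapped that of all 203. A single DMR, on chromosome 4 at 9216809 to 9217580, had a difference under 10 points, with a loss of 5.48 points in CHG. The study's stated rule for a DMR asks for more than 10 points, and why this one was listed was not tested.

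Ranked by difference times cytosines, the leading CG changes near centromeres were gains. At chromosome 3, 16981148 to 16981649 (502 bp, 119 cytosines), the CG level was 17.0% in CS and 72.7% in HDS. At chromosome 1, 19933298 to 19933650 (49 cytosines), it was 22.7% in CS and 80.3% in HDS. The leading CG losses held fewer cytosines than these gains. The level at chromosome 7, 14236937 to 14237273 (31 cytosines), was 71.3% in CS and 16.7% in HDS. The level at chromosome 3, 19363679 to 19363859 (32 cytosines), 36.2 kb from the midpoint, was 77.5% in CS and 39.7% in HDS.

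The leading CHG gains by the same ranking were on chromosomes 8 and 1. The CHG level at chromosome 8, 12195571 to 12196015 (65 cytosines), was 8.28% in CS and 51.0% in HDS. The CHG level at chromosome 1, 13874049 to 13874576 (65 cytosines), was 30.6% in CS and 68.1% in HDS. The leading CHG losses both lay within 1 Mb of a midpoint. The 932 bp DMR at chromosome 3, 18975592 to 18976523, the longest of the 203, had 68.0% in CS and 8.61% in HDS over 26 cytosines. The DMR at chromosome 10, 8456237 to 8456434, had 72.6% in CS and 35.1% in HDS.

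The leading CHH gains were at chromosome 4, 11004224 to 11004608 (17.5% in CS and 69.3% in HDS over 55 cytosines), and at chromosome 8, 12195568 to 12195920 (3.92% and 38.4% over 78 cytosines). The leading CHH loss was at chromosome 2, 14801017 to 14801356, where 92 cytosines had 45.1% in CS and 12.4% in HDS. The next was at chromosome 9, 6776 to 7199, with 35.4% in CS and 4.85% in HDS.

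Where pericentromeric DMRs of different contexts overlapped, they nearly always gained methylation together. DMRs of different contexts shared at least 1 bp in 16 pairs, of which 9 joined CG and CHG, 5 CHG and CHH, and 2 CG and CHH. In 15 pairs both levels were higher in HDS, in 0 pairs were both lower, and in 1 pair they went opposite ways. On the arms, 9 such pairs comprised 3 with both levels higher and 6 with both lower. The 26 pericentromeric DMRs in these pairs included 25 hyper-DMRs (96.2%, 81.1 to 99.3), and the 17 on the arms included 6 (35.3%, 17.3 to 58.7). The difference was 60.9 points (33.0 to 79.1), an interval that treats overlapping DMRs as independent although they share their place and reads. Counted by place, 11 of 12 shared places near centromeres were all gains, against 3 of 8 on the arms.

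Away from these shared places the excess of gains near the centromeres was smaller. Among DMRs that overlapped no other context, 107 of 177 pericentromeric ones were hyper-DMRs (60.5%, 53.1 to 67.4), against 111 of 199 on the arms (55.8%). The difference was 4.67 points, with an interval (-5.29 to 14.5) that included 0. With each shared place counted once it was 7.89 points (-1.80 to 17.3). These comparisons were chosen after seeing the data.

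**Figure D5:**
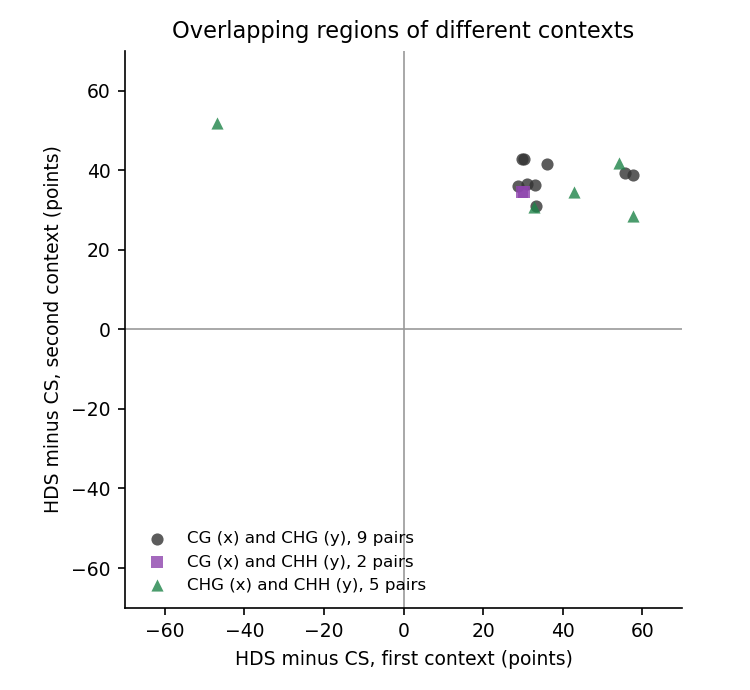
HDS minus CS in percentage points for each of the 16 pairs of overlapping pericentromeric DMRs, with 1 context on each axis as named in the key. In 15 pairs both differences are above 0 and in 0 pairs are both below 0, and the single pair in the upper left is the CHH gain around a CHG loss on chromosome 4.

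A single pericentromeric place was called in all 3 contexts, at chromosome 8, 12195568 to 12196015, 0.704 Mb before the midpoint. Besides the CHG and CHH gains given above, it held CG DMRs at 12195588 to 12195652 (14.5% in CS and 44.3% in HDS) and at 12195712 to 12195952 (11.4% and 41.6%). All 4 DMRs thus began under 15% in CS, and their HDS levels ran from 38.4% to 51.0%. The DMRs of each context cover only part of this stretch of 448 bp, and levels in its remaining bases are not known.

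The shared CG and CHG places fell into those with low and those with intermediate CG methylation in CS. At chromosome 2, 11919564 to 11919931, CG went from 8.87% in CS to 42.2% in HDS and CHG from 4.36% to 35.4%. At chromosome 3, 16981147 to 16981649, the CG gain given above was joined by CHG at 13.9% in CS and 53.3% in HDS. At chromosome 1, 19933298 to 19933650, it was joined by CHG at 16.1% and 54.8%. In these places both contexts were below 25% in CS.

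In the others CG was already over 50% in CS. At chromosome 1, 18318932 to 18319253, CG went from 59.0% to 92.0% and CHG from 28.3% to 64.5%. At chromosome 10, 10801372 to 10801741, CG went from 57.4% to 88.3% and CHG from 24.8% to 61.3%. The gain in CHG was the larger of the paired gains at these places and at those that follow. At chromosome 9, 567814 to 568167, CG went from 58.6% to 94.6% and CHG from 26.0% to 67.5%. At chromosome 5, 15332608 to 15332809, CG went from 62.8% to 91.6% and CHG from 39.1% to 75.0%. The CHG level at each of these places stayed below the CG level in both libraries.

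Shared CHG and CHH places combined a high CHG level with a lower CHH level in HDS. At chromosome 4, 6678409 to 6678627, CHG went from 20.2% in CS to 74.4% in HDS and CHH from 9.09% to 50.9%. At chromosome 4, 11491624 to 11491808, CHG went from 45.7% to 78.3% and CHH from 16.2% to 46.8%. At chromosome 12, 16832319 to 16832762, CHG went from 13% to 70.7% and CHH from 4.49% to 32.9%. The exception in direction was the CHH gain at chromosome 4, 11004224 to 11004608, given above. Inside it, at 11004445 to 11004499, 6 CHG cytosines had 78.8% in CS and 31.9% in HDS. In HDS this CHG level was below the CHH mean of the longer region. The CHH level of the shared bases alone is not known.

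Some pericentromeric DMRs lay near one another. Joining DMRs within 10 kb gave 33 groups that held 84 of the 203 (41.4%), while 119 stood alone. On the sparser arms, 22 such groups held 50 of 216 DMRs (23.1%). With overlapping DMRs counted as 1 place, 61 of 189 pericentromeric places (32.3%) and 36 of 207 on the arms (17.4%) had another place within 10 kb. Groups form more readily where DMRs are dense, and that part in the difference was not tested. Of these groups, 22 held 2 DMRs, 7 held 3, 3 held 4 and 1 held 7. Gains and losses were found side by side in 16 of the 33 groups, 16 were all gains and 1 was all losses. On the arms, 10 of the 22 groups were mixed, 5 were all gains and 7 were all losses.

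The largest group lay on chromosome 5 at 15332386 to 15344421, 2.93 Mb after the midpoint, with 4 CG and 3 CHG DMRs, of which 5 were gains and 2 were losses. In its CG DMRs, the level at 15332386 to 15332551 went from 55.7% in CS to 86.0% in HDS, and at 15339062 to 15339155 from 13.5% to 61.5%. At the other end of the group, at 15344197 to 15344421, CG fell from 85.7% to 50.6%. Between them lay a CHG loss at 15334237 to 15334402 (58.0% in CS and 20.2% in HDS) and a CHG gain at 15336072 to 15336150 (28.5% and 67.2%). The overlapping CG and CHG gains at 15332608 were given above, so gains and losses were found in both contexts of this group.

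Chromosome 8 held the other dense groups of gains. At 12975618 to 12992767, 75.7 kb after the midpoint, 4 CHG DMRs within 17.2 kb all gained methylation, among them the widest change of all members given above. The first of them, at 12975618 to 12975854, had 19.5% in CS and 53.5% in HDS. The levels were 22.6% and 70.6% at 12982150 to 12982494, and 29.8% and 71.2% at 12992554 to 12992767. A group of 4 at chromosome 9, 1176 to 7459, had 3 gains and 1 loss and lay at the very start of the chromosome sequence. It counts as pericentromeric because the approximate midpoint of chromosome 9 is 2.80 Mb from that end, so the window there also takes in the whole short arm. In this group, CG at 1176 to 1271 went from 53.6% to 94.4%. CHH at 3575 to 3844 went from 2.55% to 45.3% and CHG at 7308 to 7459 from 15.6% to 50.8%, while the CHH loss between them, at 6776 to 7199, was given above.

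The chromosomes differed in how many of their DMRs were pericentromeric. The windows of chromosomes 4, 10 and 5 held 31, 28 and 26 DMRs, and that of chromosome 7 held 9. On chromosome 10, 28 of 34 DMRs (82.4%) lay near the centromere, and on chromosome 7 9 of 35 (25.7%). The window was denser than the arms on 9 of the 12 chromosomes. The arms were denser on chromosomes 7 (1.37 against 0.9 per Mb), 11 (1.56 against 1.3) and 12 (1.44 against 1.3). The densest windows were those of chromosome 4 with 3.10 DMRs per Mb (2.11 to 4.40) and chromosome 10 with 2.80 per Mb (1.86 to 4.05). Their intervals lay above that of chromosome 7, at 0.9 per Mb (0.412 to 1.71).

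Hyper-DMRs outnumbered hypo-DMRs near the centromere on 10 of 12 chromosomes, and on the arms on 8 of 12. Numbers were equal on chromosome 2 (7 and 7), and losses prevailed on chromosome 3 (5 gains and 8 losses). The hyper-DMR share was highest on chromosome 9 (12 of 15), chromosome 8 (15 of 19) and chromosomes 6 (9 of 12) and 10 (21 of 28). It was higher near the centromere than on the arms on 8 of 12 chromosomes. Chromosome 9 showed the widest gap, since 5 of its 15 DMRs on the arms were gains. Its window takes in the whole short arm, however. Of its 15 pericentromeric DMRs, 10 lay before the midpoint and 1 lay within 1 Mb of it. The windows hold only 9 to 31 DMRs each, so the ranking of chromosomes is not firm. The interval for chromosome 9 (54.8 to 93.0%) overlapped that for chromosome 3 (17.7 to 64.5%). Such overlap does not settle whether shares differ, and differences between chromosomes were not tested.

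The space next to the midpoint was filled very unevenly. On chromosome 9 the nearest DMR lay 10.5 kb from the midpoint (2810485 to 2810565, CHG, 19.0% in CS and 62.0% in HDS). On chromosome 10 it lay 24.7 kb away (8224595 to 8224718, CHH, 15.8% and 55.0%). Other chromosomes had a loss at that place. On chromosome 2 the nearest was a CHG DMR at 13636035 to 13636188 (59.7% in CS and 16.8% in HDS), and on chromosome 3 it was the CG loss given above, both 36 kb away. The nearest DMRs on chromosome 11 (12043429 to 12043546, CHG, 66.9% and 19.2%) and chromosome 5 (12471449 to 12471740, CHG, 72.3% and 12.5%) were losses as well. That on chromosome 12 (12029012 to 12029218, CHH, 35.9% and 4.63%) was a further loss, and that on chromosome 4 (9797440 to 9797686, CG, 44.3% and 83.8%) was a gain.

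On chromosomes 1, 6 and 7 no DMR lay within 1 Mb of the midpoint. The nearest were 1.62 Mb away on chromosome 1, where it was the shared place at 18318932, 1.81 Mb on chromosome 7 (13909103 to 13909242, CHG, 38.4% in CS and 79.9% in HDS) and 2.75 Mb on chromosome 6 (18054796 to 18054848, CG, 94.6% and 67.5%). The stretch without a DMR around the midpoint was 5.89 Mb on chromosome 6, against 0.0554 Mb on chromosome 10. Chromosome 11 was lopsided, since 12 of its 13 pericentromeric DMRs lay after the midpoint and 11 lay within 1 Mb of it. Whether such gaps hold cytosines that could be measured, or whether the approximate midpoints are off, was not tested.

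The limit of 5 Mb cut through a continuous range. The last DMRs inside it were CHH gains at chromosome 3, 14401953 to 14402118 (25.8% in CS and 72.3% in HDS), and chromosome 7, 7131273 to 7131347 (18.3% and 50.9%). The first outside were CHG losses at chromosome 6, 10255895 to 10256010 (70.9% and 18.7%), and chromosome 9, 7864764 to 7864873 (90.1% and 36.7%).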

How the data were processed

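Whole-genome bisulfite reads of 1 CS library (25 °C) and 1 HDS library (30 °C) were trimmed by the authors with Trimmomatic 0.38 and aligned to IRGSP-1.0 with Bismark 0.22.3 and HISAT2 2.1.0, and DMRs were called with DSS, separately for CG, CHG and CHH. The 3 deposited tables give each region's position, its number of cytosines and a methylation level per library as a fraction, which was converted to percent. Whether these levels are smoothed is not stated, and depth per region is not a column of the tables. No column carries a sample name. HDS was taken to be the first level column and CS the second, because DSS subtracts the second group from the first, heat comes first in the comparison's name, and the number of positive differences equals that of hyper-DMRs in the study's main text, although a figure legend of the study gives a slightly different split that this count does not match. All directions depend on this reading. The tables also hold the authors' differences and area statistics, which were not used. HDS minus CS was computed from the levels.

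Regions were selected for their difference, so the differences are not those of the genome. No deposited member was under 50 bp or 3 cytosines. The study's stated rule also asks for a significant difference above 10 points, and 1 member was below that difference. Centromere midpoints are approximate values, and arms were measured to the last region of each chromosome. Members, the named regions and other lists were chosen with earlier results of these data known. The named regions were the 2 of each context and direction with the largest absolute difference times cytosines, every member overlapping another context, the member nearest each midpoint, the 2 just inside and the 2 just outside the limit, and groups of 4 or more within 10 kb. The largest gain and loss, and the DMR with a difference under 10 points, were chosen after their values were seen. Intervals (95%) were Wilson for shares, Newcombe for differences of shares, exact Poisson for densities, conditional exact binomial for density ratios and order-statistic for medians. Regions were treated as independent, and variation between seed pools is not covered. The scripts (Python 3.11.15 with scipy 1.17.1, numpy 2.4.6, pandas 2.3.3 and matplotlib 3.10.9) were tested on simulated data. Alternatives were other windows and midpoints, limits on difference, cytosines and length, merging, other overlap and join distances, and each chromosome left out. Leaving out overlapping regions or counting them once was added after seeing the data. Sequence and annotation were not analysed here.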

Additional observations from a re-analysis of the deposited data

How the results depend on the processing

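Over 26 alternatives, 628 of 660 values were classed as unchanged. For shares, median levels and densities this meant a value within the interval of the reported one, and for counts a value within a fixed ratio of it. For differences of shares it meant an interval that included 0, or left it out, as the reported one did. Of these differences, 0 changed direction. The total is a weak check, because 348 of the 660 values came from leaving out 1 chromosome, which keeps most regions. Of those 348, 5 were not classed as unchanged. For all contexts, the difference between window and arms had an interval including 0 in 8 of 22 alternatives. The CG hyper-DMR share, whose interval includes 50% throughout, was 55.0% and fell to 47.6% (2.5 Mb), 47.8% (at least 10 cytosines) and 41.9% (overlapping regions left out). The hyper-DMR share near centromeres had an interval above 50% in 22 of 22 alternatives for all contexts and for CHG, in 19 of 22 for CHH and in 0 of 22 for CG. The pericentromeric share of DMRs followed the window by construction: with 2.5 Mb it was 27.9% (25.6% for CG DMRs, 29.1% for CHG and 26.5% for CHH), and with 7.5 Mb it was 64.0% (66.1% for CHG and 63.9% for CHH). With 2.5 Mb, 19 groups within 10 kb held 47 DMRs. With at least 10 cytosines, CHG made up 44.9% and CHH 33.6% of members, the density was 0.908 per Mb and 9 pairs of overlapping DMRs were left, 9 of them in the same direction. With at least 100 bp, the density was 1.09 per Mb, with 8 pairs, 8 in the same direction. Fewer regions enter these settings. The hyper-DMR share near centromeres minus that on the arms had an interval including 0 with 2.5 Mb (4.12 points, and 9.55 in CHG), midpoints moved 0.5 Mb towards the end (9.32), at least 10 cytosines (10.4, and 17.6 in CHG), and without chromosome 7 (9.15), 9 (8.11, and 11.5 in CHG) or 10 (9.62). The same held for overlapping regions left out (4.67, and 10.7 in CHG) or counted once (7.89, and 12 in CHG), alternatives chosen after seeing the data. In CHH the interval lay above 0 with 7.5 Mb (23.1) and without chromosome 11 (26.4). The cause of these shifts was not tested. No paired analysis was possible because only 1 library was made per group, and none could be left out. The planned description of sequence and annotation was not run. Depth per region is unknown, so single levels carry no interval.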

Other observations

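Some deposited levels recurred to all 6 decimals compared (in percent) at separate places. On the chromosomes 5 such levels accounted for 12 values, all in CHG, and 8 of these values belonged to 6 pericentromeric DMRs. The CS level of 78.8% at chromosome 3, 23257160 to 23257223 (8 cytosines), the place of the largest loss, was also that at chromosome 4, 11004445 to 11004499 (6 cytosines), the CHG loss inside a CHH gain. The HDS level of that largest loss, 8.35%, recurred as well, on the arms at chromosome 7, 18044575 to 18044753 (10 cytosines). The HDS level of 87.6% was the same at chromosome 7, 8637454 to 8637528, and at chromosome 9, 100298 to 100385 and 4756728 to 4756782, each with 4 or 5 cytosines. At the last of these the CS level, 5.97%, also recurred, on the arms at chromosome 11, 25924193 to 25924366. How identical levels arose at places of different cytosine number was not tested.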
